A study of Mus musculus with 8 samples.

Results

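The mouse collagen genes were taken from the deposited count table as every row annotated as protein coding whose symbol reads Col, a number, the letter a and a number. This rule found 45 of the 54532 genes of the table. Of these, 44 encode collagen chains and were sorted into 6 fibrillar chains (types I, III and V), 8 basement membrane chains (types IV, XV and XVIII) and 30 chains of other types. The remaining member, Col4a3bp, matches by its name only. It encodes the ceramide transporter CERT and is given apart from the 3 classes.

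The RNA came from whole lungs of CC-LR mice on a C57BL/6 background, in which Cre recombinase expressed from the club cell secretory protein locus turns on a K-rasG12D allele in the lung epithelium and tumors arise. Both groups carried these alleles and were taken at 14 weeks of age, 4 mice labeled Control and 4 mice given TTI-101, a small molecule inhibitor of STAT3 signaling, for 4 weeks. The vehicle of the Control mice and the route of TTI-101 in the sequenced mice are not given in the sources used here, and mice of both sexes entered the study. The question asked here is how far each collagen mRNA differed between TTI-101-treated and Control lungs. A whole lung holds tumor and normal tissue together, so fewer cells of a type and less RNA per cell cannot be told apart in any value given here. The labels number the libraries within a group without saying how the mice were housed or handled, and the p-values measure the spread between these samples. The libraries of Control mice 1 to 4 are named A1, A2, B1 and B2. Those of TTI-101-treated mice 1 to 4 are named C1, C2, D1 and D2. What the letters stand for is not given, and the tests used no such grouping.

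The 4 Control libraries held 16446481 to 26873509 counts and the 4 TTI-101-treated ones 16075855 to 25920509, and the most abundant chain, Col4a1, had at least 10339 counts in every library. Levels are given as CPM, counts scaled to a common library size by TMM, which compare a gene between libraries, and as FPKM, the same values per kilobase of transcript, which compare genes with each other. The lung markers Sftpc and Scgb1a1 were between 16673 and 40617 CPM and between 10013 and 31148 CPM in the 8 libraries. Control mouse 4 stood apart from the other 7 mice, with 5.56% of its counts from mitochondrial genes against 2.01% to 2.85% and a position of 99.97 on the first principal component against -39.4 to 18.3. The class medians and many single genes are therefore given with and without this mouse.

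Collagens are secreted proteins whose chains wind around each other in a helix. Types I, III and V form the banded fibrils of airway walls, vessel sheaths and alveolar septa and are made mainly by fibroblasts and smooth muscle cells. Type IV chains form the sheet-like network of basement membranes under epithelium and endothelium, and types XV and XVIII sit beside it. The other types link fibrils, form beaded filaments or fine networks, or stay in the cell membrane, and several belong to cartilage rather than to lung. They also hold fibril-forming chains outside types I, III and V, such as Col2a1 and Col27a1.

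No collagen gene separated TTI-101-treated from Control lungs at an adjusted p under 0.05. In edgeR's quasi-likelihood fit, 0 of the 34 chains that passed its filter on low counts were called, as were 0 of all 17138 genes tested (0%), and the lowest adjusted p of a chain was 0.657. At an unadjusted p under 0.05, 2 chains passed, Col12a1 and Col13a1, both with higher means in TTI-101-treated lungs, where 6.61% of all genes passed, 3.02% with higher and 3.58% with lower means. DESeq2's Wald test passed 6 collagen chains at an unadjusted p under 0.05, against 5.32% of all genes with a p, and its lowest adjusted p among them was 0.741. In 0 of the 34 chains did all 4 TTI-101-treated libraries lie on 1 side of all 4 Control libraries, which 2.96% of all genes tested did.

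The fold changes of the chains were small and mostly positive. Of the 34 chains, 26 had a log2 fold change above 0 (TTI-101 over Control) and 8 below 0, or 76.5% above 0, where 50.6% of all genes were above 0. The median log2 fold change was 0.26 over the 34 chains, 0.24 over the fibrillar chains, 0.24 over the basement membrane chains and 0.33 over the others, beside 0.00 over all genes tested. Without Control mouse 4 these medians were 0.14, 0.13, 0.16 and 0.13, beside 0.02 over all genes. Chains of one lung share its tissue and its library, so their common direction is not a count of independent results. Without that mouse, 0 of these 34 chains passed an unadjusted p of 0.05 in edgeR, where 3.03% of all genes did.

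**Figure D1:**
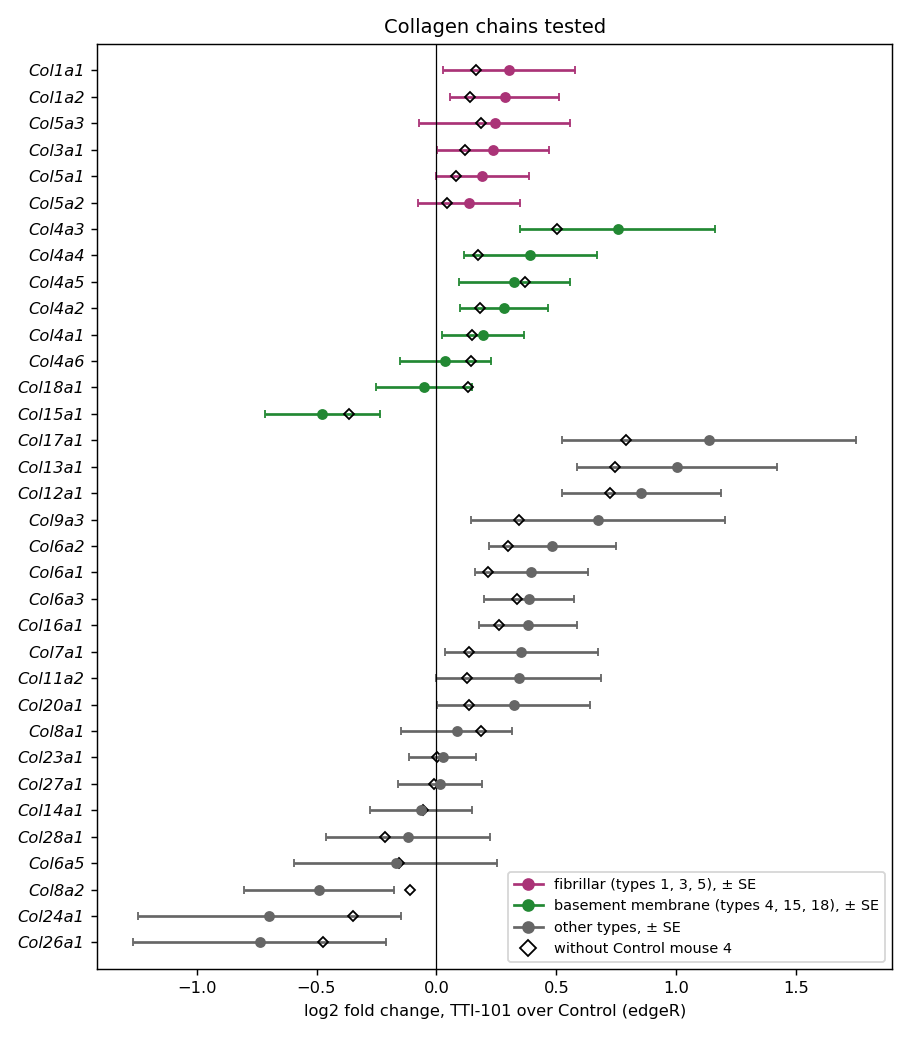
The log2 fold change of each of the 34 tested collagen chains, TTI-101 over Control, is drawn with its SE (filled points and bars, colored by class) and without Control mouse 4 (open diamonds). Most points lie to the right of 0 and most diamonds lie closer to 0 than their points, as the medians of 0.26 and 0.14 show.

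Summed over a class, the lungs overlapped in all 3 classes. The 6 fibrillar chains added up to 197, 214, 136 and 116 FPKM in Control mice 1 to 4 and to 163, 197, 261 and 173 FPKM in TTI-101-treated mice 1 to 4. The 8 basement membrane chains added up to 291, 270, 217 and 206 FPKM in Control and to 256, 281, 312 and 316 FPKM in TTI-101-treated lungs. The 30 others added up to 183, 178, 140 and 108 FPKM in Control and to 176, 189, 233 and 190 FPKM in treated lungs. In each class, Control mice 3 and 4 were the lowest lungs and Control mice 1 and 2 lay among the treated ones. Control mice 3 and 4 share the library letter B, and a part of that letter in the values was not tested. All 44 chains together took 0.297% to 0.517% of the counts of Control and 0.463% to 0.607% of those of TTI-101-treated libraries.

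Control mouse 4 had the lowest CPM of all 8 lungs in 18 of the 34 chains and the highest in 4. Over all genes tested it was the lowest in 28.7% and the highest in 24.8%. Control mouse 3 was the lowest lung in 5 chains, and TTI-101-treated mice 2 and 3 were the highest in 9 chains each. The median log2 fold change of the 34 chains was 0.18 without Control mouse 3, 0.20 without treated mouse 2 and 0.15 without treated mouse 3. Over all single libraries left out, the medians ranged from 0.12 to 0.36 for the fibrillar, from 0.13 to 0.32 for the basement membrane and from 0.13 to 0.45 for the other chains.

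**Figure D2:**
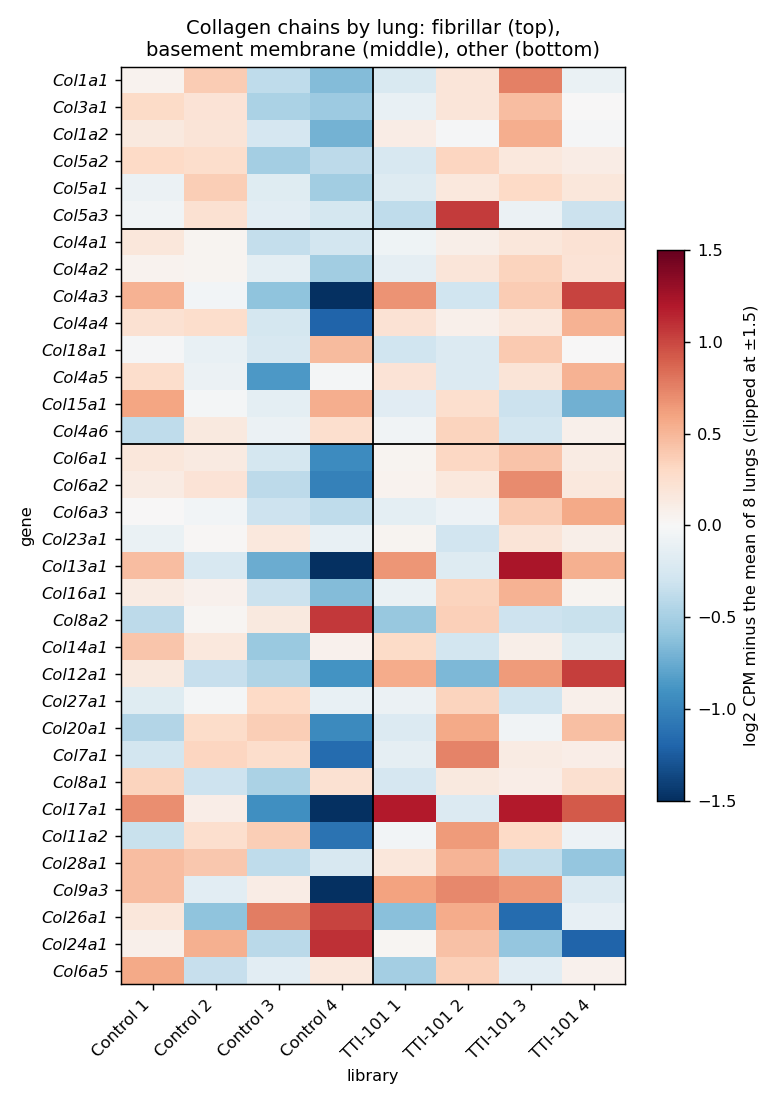
The color shows log2 CPM of each tested chain minus its mean over the 8 lungs, red above and blue below the mean, for 4 Control and 4 TTI-101-treated mice. The column of Control mouse 4 is mostly blue, with Col18a1, Col8a2, Col26a1 and Col24a1 among its red cells, and this lung was the lowest in 18 of 34 chains.

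The fibrillar chains were among the most abundant collagen mRNAs, and their group means differed by less than the spread between mice. Col1a1 (ENSMUSG00000001506, chromosome 11 of GRCm38, 94936224 to 94953042), the main chain of type I collagen, was at 428, 537, 316 and 262 CPM in Control mice 1 to 4 and at 353, 466, 696 and 385 CPM in TTI-101-treated mice 1 to 4. Apart from TTI-101-treated mouse 3, all treated values lay within the Control range. The means were 386 ± 122 and 475 ± 155 CPM (SD, n = 4 each), with a log2 fold change of 0.30 (standard error, SE, 0.27, edgeR adjusted p = 0.745, exact permutation p = 0.371). Leaving out Control mouse 4 gave a log2 fold change of 0.16, and leaving out treated mouse 3 gave 0.058.

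Col1a2 (chromosome 6, 4504814 to 4541544), which encodes the partner chain of Col1a1 in type I collagen, was at 508, 526, 387 and 281 CPM in Control and at 497, 454, 669 and 453 CPM in TTI-101-treated mice. Here too the highest lung was TTI-101-treated mouse 3 and the lowest Control mouse 4, and the other 6 overlapped. The log2 fold change was 0.28 (SE 0.23, edgeR adjusted p = 0.710), and 0.14 without Control mouse 4. Col3a1 (chromosome 1, 45311538 to 45349706), whose product forms homotrimers found with type I in distensible tissue, was at 682, 640, 400 and 381 CPM in Control and at 518, 632, 767 and 557 CPM in treated mice. Control mice 1 and 2 lay above 3 of the treated lungs and Control mice 3 and 4 below all of them. Its log2 fold change was 0.23 (SE 0.23, edgeR adjusted p = 0.762), and 0.12 without Control mouse 4.

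Type V collagen, which seeds type I fibrils and limits their width, was less abundant per length. Col5a1 was at 70.2 ± 18.3 CPM in Control and 80.2 ± 11.1 CPM in TTI-101-treated lungs (SD, n = 4 each), with a log2 fold change of 0.19 (SE 0.19, edgeR adjusted p = 0.766). Col5a2 was at 85.2 ± 24.6 and 93.7 ± 14.7 CPM (SD, n = 4 each), with a log2 fold change of 0.14 (SE 0.21, edgeR adjusted p = 0.853). Both had treated means within the Control range. The minor chain Col5a3 was at 14.0, 17.1, 13.1 and 12.1 CPM in Control and at 11.2, 30.2, 13.7 and 11.6 CPM in treated mice, so that 1 lung, TTI-101-treated mouse 2, set its log2 fold change of 0.24 (SE 0.32, edgeR adjusted p = 0.824). Without that lung the log2 fold change of Col5a3 was -0.20. All 6 chains of types I, III and V had log2 fold changes above 0, from 0.14 to 0.30, and their lowest unadjusted p from edgeR was 0.237. Single libraries left out gave log2 fold changes between 0.14 and 0.41 for Col1a2, between 0.11 and 0.39 for Col3a1, between 0.080 and 0.38 for Col5a1 and between 0.0072 (without Control mouse 3) and 0.27 for Col5a2.

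**Figure D3:**
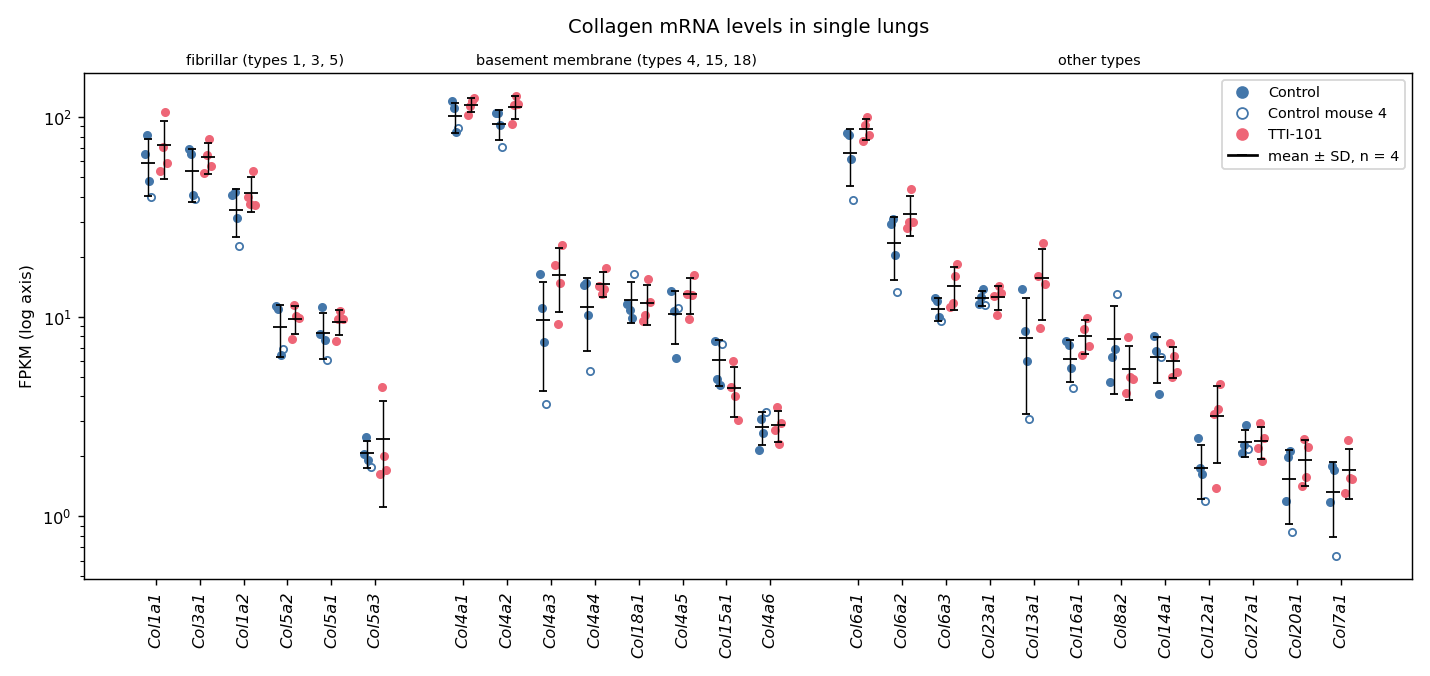
FPKM on a log axis is shown for the 26 collagen chains named in the text, grouped by class. Points are single lungs, open circles are Control mouse 4, and black bars are the mean ± SD of 4 mice, and for every chain the Control and TTI-101 points overlap.

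Type IV collagen gave the most abundant collagen mRNAs of these lungs per length. Col4a1 had a mean of 108 FPKM over the 8 lungs, rank 370 of the 17138 genes tested, and Col4a2 had 103 FPKM, rank 398. The order went on with Col6a1 at 76.9 FPKM, Col1a1 at 65.6, Col3a1 at 58.3, Col1a2 at 38.0 and Col6a2 at 28.1. Neighbors in this order overlapped from lung to lung, with 84.0 to 124 FPKM for Col4a1, 70.6 to 128 FPKM for Col4a2 and 38.6 to 100.3 FPKM for Col6a1. The next chain, Col4a3, was at 13.0 FPKM, and the lowest tested chain, Col6a5, was at 0.0691 FPKM.

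The 6 type IV genes lie in head-to-head pairs that start next to each other on opposite strands. Col4a1 and Col4a2 (chromosome 8) overlap by 22 bases at their starts, Col4a3 and Col4a4 (chromosome 1) are 71 bases apart and Col4a5 and Col4a6 (chromosome X) are 1308 bases apart in the table's GRCm38 coordinates. The start regions are printed here because the chains of a shared start region are compared with each other below. RefSeq's promoter table for GRCm38.p6 held 35 of the 44 collagen chains, from 250 bases before to 50 bases after the start, and Col4a3 had no entry. In each sequence, written 5' to 3' on the gene's own strand, capitals mark the motifs CCAAT and GGGCGG, searched on both strands. The windows are chr8:11312777-11313076 (minus strand) for Col4a1, chr8:11312555-11312854 (plus strand) for Col4a2, chrX:141475169-141475468 (plus strand) for Col4a5 and chrX:141474027-141474326 (minus strand) for Col4a6.
Col4a1: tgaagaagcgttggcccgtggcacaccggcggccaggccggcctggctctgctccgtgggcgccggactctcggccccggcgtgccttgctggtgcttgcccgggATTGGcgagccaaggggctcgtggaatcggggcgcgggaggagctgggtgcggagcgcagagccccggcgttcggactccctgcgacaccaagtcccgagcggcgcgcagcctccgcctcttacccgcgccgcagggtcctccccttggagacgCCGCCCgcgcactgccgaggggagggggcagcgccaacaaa
Col4a2: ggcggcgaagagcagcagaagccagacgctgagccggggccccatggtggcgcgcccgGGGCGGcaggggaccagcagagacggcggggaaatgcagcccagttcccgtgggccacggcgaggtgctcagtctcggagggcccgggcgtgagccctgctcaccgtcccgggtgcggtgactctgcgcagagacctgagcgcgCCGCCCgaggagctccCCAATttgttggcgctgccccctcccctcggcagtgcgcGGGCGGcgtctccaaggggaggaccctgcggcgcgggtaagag
Col4a5: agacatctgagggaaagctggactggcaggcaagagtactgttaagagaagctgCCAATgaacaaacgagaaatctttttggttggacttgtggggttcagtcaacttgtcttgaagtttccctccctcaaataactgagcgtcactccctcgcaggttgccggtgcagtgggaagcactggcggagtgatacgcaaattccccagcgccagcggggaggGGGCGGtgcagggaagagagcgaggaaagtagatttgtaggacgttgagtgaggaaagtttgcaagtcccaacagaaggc
Col4a6: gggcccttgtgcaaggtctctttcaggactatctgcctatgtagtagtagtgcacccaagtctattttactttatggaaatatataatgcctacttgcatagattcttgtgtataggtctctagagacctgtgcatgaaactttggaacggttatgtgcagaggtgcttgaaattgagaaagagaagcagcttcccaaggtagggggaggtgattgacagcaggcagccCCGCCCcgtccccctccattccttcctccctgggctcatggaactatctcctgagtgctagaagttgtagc

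The windows of Col4a1 and Col4a2 share 78 bases, with start sites 21 bases apart, and hold 74% and 73.7% G or C, against 52.7% for Col4a5 and 48.3% for Col4a6. CCAAT, the box bound by the factor NF-Y, was found 1 time each in the windows of Col4a1, Col4a2 and Col4a5. GGGCGG, the core of GC boxes bound by Sp1, was found 1 time in Col4a1, 3 times in Col4a2 and 1 time each in Col4a5 and Col4a6. The match in Col4a1 and the last of the 3 in Col4a2 are the same site, within the 78 shared bases. Of the 35 collagen windows, 62.9% held GGGCGG and 34.3% held CCAAT, where 35.7% and 37.4% of all 32851 windows in the table did. TTCNNNGAA, a letter pattern that STAT factors can bind, was in 5.71% of the collagen windows, those of Col28a1 and Col6a5, and in 8.3% of all windows, and TATAAA was in 14.3% and 13.6%. These matches describe the letters of the windows only.

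Among the 8 basement membrane chains, 6 had log2 fold changes above 0 and 2 below 0, and none passed an unadjusted p of 0.05 from edgeR, the lowest being 0.0760. Col4a1, a chain of the network found in nearly all basement membranes, was at 900, 826, 627 and 661 CPM in Control and at 764, 851, 903 and 929 CPM in TTI-101-treated mice. Control mice 3 and 4 lay below every treated lung and the other Control lungs lay among them. Its means were 753 ± 131 and 862 ± 73.0 CPM (SD, n = 4 each), with a log2 fold change of 0.19 (SE 0.17, edgeR adjusted p = 0.741, exact permutation p = 0.2). Col4a2, its partner, was at 696, 691, 606 and 467 CPM in Control and at 609, 762, 845 and 774 CPM in treated mice. In Col4a2, 3 of the treated lungs lay above every Control lung and TTI-101-treated mouse 1 lay among them, with a log2 fold change of 0.28 (SE 0.18, edgeR adjusted p = 0.670, exact permutation p = 0.143). Without Control mouse 4 the log2 fold change of Col4a2 was 0.18.

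The chains of the network in glomerular and alveolar basement membranes, Col4a3, Col4a4 and Col4a5, varied more between lungs. Col4a3 (chromosome 1, 82586921 to 82722059) was at 163, 110, 74.9 and 36.6 CPM in Control and at 181, 92.2, 147 and 229 CPM in TTI-101-treated mice, with a log2 fold change of 0.76 (SE 0.41, edgeR adjusted p = 0.657, exact permutation p = 0.171). The lungs spanned 6.25-fold from Control mouse 4 to TTI-101-treated mouse 4. Without Control mouse 4 the log2 fold change was 0.50, and 5.65% of the exon bases of Col4a3 also belong to C430014B12Rik on the other strand, which counts made without strand could not tell apart. Col4a4 was at 153, 156, 109 and 56.5 CPM in Control and at 152, 138, 146 and 187 CPM in treated mice. Control mouse 4 was again the lowest, and 3 treated lungs lay within the Control range. The log2 fold change of Col4a4 was 0.39 (SE 0.28, edgeR adjusted p = 0.687), and 0.17 without Control mouse 4.

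Col4a5, the third chain of that network, was at 69.6 ± 20.4 CPM in Control and 87.2 ± 17.7 CPM in TTI-101-treated lungs (SD, n = 4 each), with a log2 fold change of 0.32 (SE 0.23, edgeR adjusted p = 0.689) that was 0.14 without Control mouse 3. Col4a6, found with Col4a5 in the basement membranes of airway and smooth muscle, was at 22.3 ± 4.15 and 22.9 ± 4.07 CPM (SD, n = 4 each), with a log2 fold change of 0.04 (SE 0.19, edgeR adjusted p = 0.963). Its sign changed when Control mouse 1 or TTI-101-treated mouse 2 was left out.

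The chains with an endostatin-like end had log2 fold changes below 0. Col15a1 (chromosome 4, 47208161 to 47313167), which lies at the border of basement membrane and fibrils around vessels, was at 48.0, 31.1, 28.8 and 46.6 CPM in Control and at 28.3, 38.1, 25.5 and 19.3 CPM in TTI-101-treated mice. In 3 of the treated lungs its level was below every Control lung, and TTI-101-treated mouse 2 lay within the Control range. The log2 fold change was -0.48 (SE 0.24, edgeR adjusted p = 0.657, exact permutation p = 0.143), and -0.37 without Control mouse 4. Col18a1, whose fragment endostatin limits vessel growth, was at 85.4 ± 20.0 and 82.4 ± 18.5 CPM (SD, n = 4 each), with a log2 fold change of -0.05 (SE 0.20, edgeR adjusted p = 0.950) and of 0.13 without Control mouse 4, its highest lung at 114 CPM. Whether the sign of these chains differs from that of the type IV chains was not tested.

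Partner chains were compared by the ratio of their FPKM in each lung, for 7 pairs taken with the values already known. Col1a1 over Col1a2 was 1.71 ± 0.175 in Control and 1.72 ± 0.299 in TTI-101-treated lungs (SD, n = 4 each). Col4a1 over Col4a2 was 1.09 ± 0.142 and 1.03 ± 0.0735, and Col6a1 over Col6a2 was 2.86 ± 0.165 and 2.71 ± 0.323. These ratios kept within 1.34 to 1.97, 0.918 to 1.26 and 2.29 to 3.08 over the 8 lungs, a narrower span than that of the levels themselves. Col4a3 over Col4a4 was 0.827 ± 0.206 and 1.09 ± 0.271 (SD, n = 4 each), and Col4a5 over Col4a6 was 3.86 ± 1.70 and 4.68 ± 1.31. Compared between groups by an exact permutation test of the log2 ratio, none of the 7 ratios passed 0.05, with adjusted p from 0.76 to 1.

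Across the 8 lungs, Pearson's r of log2 CPM was 0.97 for Col6a1 and Col6a2 (Spearman's rho 0.88, exact permutation p = 0.00067 and 0.0072, adjusted over the 7 pairs 0.0023 and 0.017). For Col4a3 and Col4a4 r was 0.93 (rho 0.83, exact permutation p = 0.00062 and 0.015, adjusted 0.0023 and 0.027). For Col1a1 and Col1a2 r was 0.90 (rho 0.88, exact permutation p = 0.0032 and 0.0072, adjusted 0.0075 and 0.017). For Col4a1 and Col4a2 it was 0.83 (rho 0.93, exact permutation p = 0.0075 and 0.0022, adjusted 0.013 and 0.016). In these 4 pairs a lung high in one chain was high in the other. Without the 2 lungs farthest from the median of the gene named before the other, r was 0.83, 0.77, 0.69 and 0.80, and without Control mouse 4 it was 0.93, 0.86, 0.87 and 0.80. Col4a5 and Col4a6 had an r of -0.19 (rho -0.38, exact permutation p = 0.67 and 0.36, adjusted 0.79 and 0.42). That value rested on few lungs, as r was -0.92 without Control mouse 3 and TTI-101-treated mouse 4. Col5a1 and Col5a2 had an r of 0.76 (rho 0.57, exact permutation p = 0.034 and 0.15, adjusted 0.048 and 0.21), and Col8a1 and Col8a2 one of 0.10 (rho -0.17, exact permutation p = 0.82 and 0.70, adjusted 0.82 and 0.70). Without the 2 lungs farthest from the median these were 0.65 and 0.34, and without Control mouse 4 they were 0.68 and -0.26, a turned sign for Col8a1 and Col8a2. The labels give no batch, and 4 lungs a group are too few for r within a group. The permutations exchanged all 8 lungs without regard to group. A group difference or tissue content common to both chains thus enters r and its p, and that part was not tested.

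**Figure D4:**
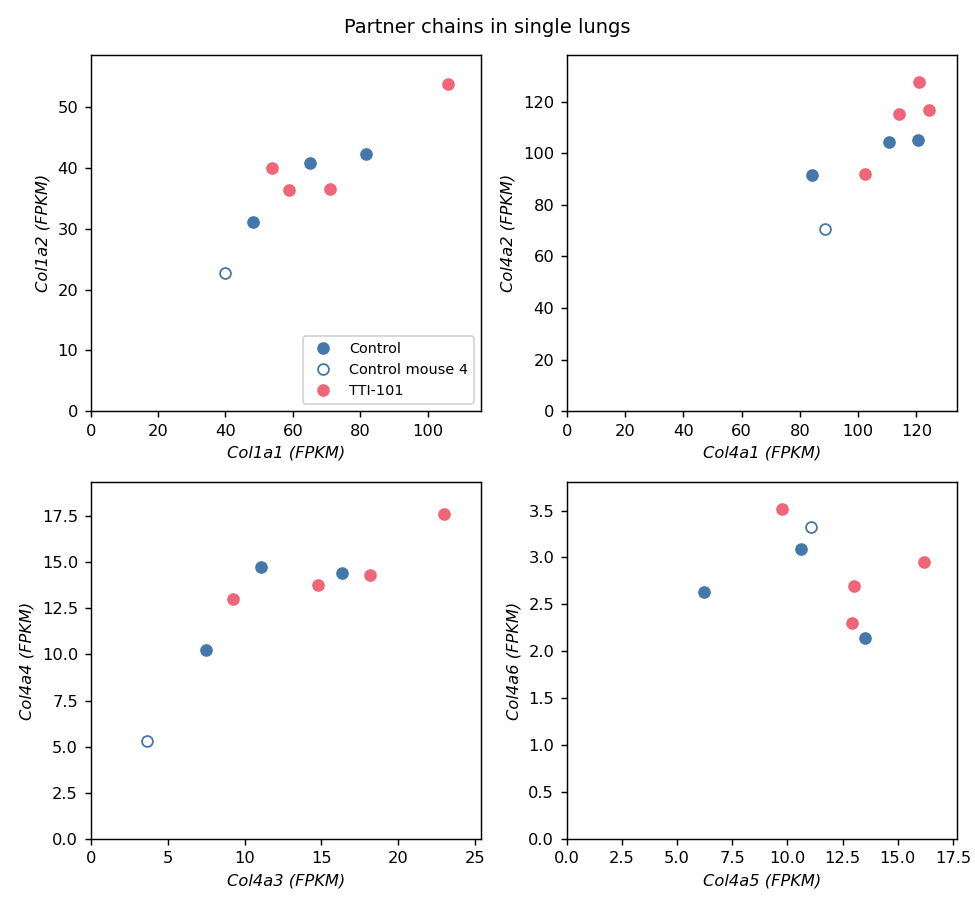
Each panel sets the FPKM of partner chains against each other, with 1 point per lung, blue for Control, open for Control mouse 4 and red for TTI-101. The points rise together for Col1a1 with Col1a2, Col4a1 with Col4a2 and Col4a3 with Col4a4 (r of 0.90, 0.83 and 0.93) and scatter for Col4a5 with Col4a6 (r of -0.19). The r values were taken from log2 CPM, not from the FPKM drawn.

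Of the 30 other chains, 20 passed the filter, with 14 log2 fold changes above 0 and 6 below 0. Type VI collagen, the beaded filament around cells, held the most abundant of them. Col6a1 (chromosome 10, 76708792 to 76726168) was at 367, 357, 271 and 169 CPM in Control and at 334, 402, 439 and 355 CPM in TTI-101-treated mice. Control mouse 4 was far below the other lungs, and the log2 fold change of 0.39 (SE 0.24, edgeR adjusted p = 0.658) was 0.22 without it. Col6a2, its neighbor on chromosome 10, was at 242, 258, 170 and 111 CPM in Control and at 231, 248, 364 and 248 CPM in treated mice. Only TTI-101-treated mouse 3 lay above every Control lung, and the log2 fold change was 0.48 (SE 0.26, edgeR adjusted p = 0.657) with Control mouse 4 and 0.30 without it. Col6a3, the largest chain of the filament, was at 149, 144, 119 and 113 CPM in Control and at 133, 140, 193 and 219 CPM in treated mice. TTI-101-treated mice 3 and 4 lay above the Control range and the other treated mice within it, with a log2 fold change of 0.38 (SE 0.19, edgeR adjusted p = 0.657) and of 0.33 without Control mouse 4.

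The membrane-spanning chains held the steadiest and the most variable collagens. Col13a1 (ENSMUSG00000058806, chromosome 10, 61838236 to 61979108), a cell surface collagen of adhesion sites that marks a class of lung fibroblasts, was at 63.6, 39.0, 27.5 and 14.1 CPM in Control and at 73.4, 40.4, 108 and 67.2 CPM in TTI-101-treated mice. In 3 treated mice it lay above every Control lung, and TTI-101-treated mouse 2 lay near Control mouse 2. Its means were 36.1 ± 21.0 and 72.3 ± 28.0 CPM (SD, n = 4 each), with a log2 fold change of 1.00 (SE 0.42, edgeR p = 0.0359 before and 0.657 after adjustment, exact permutation p = 0.0571). Without Control mouse 4 the log2 fold change was 0.75 (edgeR unadjusted p = 0.0560).

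Col23a1, another membrane collagen, was the least variable chain, with a 1.40-fold span over the 8 lungs and means of 70.9 ± 6.23 and 72.2 ± 9.88 CPM (SD, n = 4 each). Its log2 fold change was 0.03 (SE 0.14, edgeR adjusted p = 0.965). Col17a1, the collagen of hemidesmosomes in basal epithelial cells, was at 191, 77, 40 and 7 counts in Control and at 264, 62, 178 and 135 counts in treated mice. It had the widest span of the chains for which one was computed, 22.2-fold in CPM, and a log2 fold change of 1.14 (SE 0.61, edgeR adjusted p = 0.657) that was 0.79 without Control mouse 4.

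The chains that coat fibrils showed the other unadjusted call. Col12a1 (ENSMUSG00000032332, chromosome 9, 79598991 to 79718831), which bridges type I fibrils and surrounding matrix, was at 37.5, 26.6, 24.7 and 18.1 CPM in Control and at 49.8, 21.2, 52.9 and 69.8 CPM in TTI-101-treated mice. In 3 treated mice it was above every Control lung, and TTI-101-treated mouse 2 was below all but Control mouse 4. Its means were 26.7 ± 8.06 and 48.4 ± 20.1 CPM (SD, n = 4 each), with a log2 fold change of 0.85 (SE 0.33, edgeR p = 0.0268 before and 0.657 after adjustment, exact permutation p = 0.114). Without Control mouse 4 it was 0.72 (edgeR unadjusted p = 0.0621). With each library left out in turn, Col12a1 kept a log2 fold change of 0.63 to 1.11 and Col13a1 one of 0.74 to 1.43. Both passed an unadjusted p of 0.05 without Control mouse 1 or TTI-101-treated mouse 2 and missed it without any other library, with unadjusted edgeR p of 0.0515 to 0.0900 for Col12a1 and of 0.0515 to 0.122 for Col13a1. With limma-voom, Col12a1 had a log2 fold change of 0.75 (unadjusted p = 0.0577), and without a filter on low counts Col13a1 had an edgeR unadjusted p of 0.0913.

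Col14a1, a related fibril coat collagen, was at 44.0 ± 11.4 and 42.1 ± 7.60 CPM (SD, n = 4 each), with a log2 fold change of -0.07 (SE 0.21, edgeR adjusted p = 0.939). Col16a1 was at 41.7 ± 9.97 and 54.3 ± 10.6 CPM (SD, n = 4 each), with a log2 fold change of 0.38 (SE 0.20, edgeR adjusted p = 0.657), and 0.26 without Control mouse 4. Col20a1 was at 7.87 ± 3.16 and 9.85 ± 2.52 CPM (SD, n = 4 each), with a log2 fold change of 0.32 (SE 0.32, edgeR adjusted p = 0.762), and 0.13 without Control mouse 4. None of these 3 fibril coat chains had treated lungs separate from Control lungs.

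Among the network and anchoring chains, Col8a2, a chain of the short-chain networks of vessels, was at 21.2, 28.4, 30.8 and 58.1 CPM in Control and at 18.7, 35.7, 22.3 and 22 CPM in treated mice. Control mouse 4 was its highest lung, and the log2 fold change of -0.49 (SE 0.31, edgeR adjusted p = 0.667) was -0.11 without it. Col7a1, the anchoring fibril collagen under epithelium, had a log2 fold change of 0.35 (SE 0.32, edgeR adjusted p = 0.742), and 0.14 without Control mouse 4. Col27a1, a minor fibril-forming chain, had one of 0.02 (SE 0.17, edgeR adjusted p = 0.984). The remaining 7 tested chains, Col8a1, Col11a2, Col28a1, Col9a3, Col26a1, Col24a1 and Col6a5, had between 3 and 380 counts per library and log2 fold changes from -0.74 (Col26a1) to 0.67 (Col9a3), with edgeR adjusted p of 0.689 or more. Col9a3 shares 6.07% of its exon bases with Tcfl5 on the other strand.

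The 10 chains that did not pass the filter had 0 to 43 counts per library, with 16 of their 80 values at 0. They were Col10a1, Col9a2, Col6a6, Col2a1, Col6a4, Col22a1, Col25a1, Col11a1, Col19a1 and Col9a1, of which Col2a1, Col9a1, Col9a2, Col11a1 and Col10a1 are known from cartilage. Col2a1, the fibrillar collagen of cartilage, had 3, 2, 4 and 0 counts in Control mice 1 to 4 and 43, 10, 1 and 9 counts in TTI-101-treated mice 1 to 4. Col9a2, a chain of the collagen on cartilage fibrils, had 1, 2, 0 and 0 counts in Control and 18, 16, 3 and 1 counts in treated mice. In both, 3 treated lungs had more CPM than every Control lung and 1 did not. DESeq2, which keeps low genes, gave an unadjusted p of 0.0094 for Col2a1 and 0.0069 for Col9a2, with adjusted p of 0.785 and 0.741. A count of 3 in these libraries is worth 0.110 to 0.192 CPM, and 3 or fewer counts were seen in most Control libraries of both chains. Of 10 cartilage markers other than collagens, 5 were too low to test (Acan, Matn1, Matn3, Cnmd and Snorc). Their means were 0.0416, 0.125, 0.109, 0.0642 and 0 CPM in Control and 0.427, 0.0188, 0.153, 0.197 and 0.0789 CPM in treated lungs, so that Matn1 had the lower and the others the higher mean in treated lungs. The summed level of all 10 was 146 to 211 CPM in Control and 132 to 251 CPM in treated lungs and came mostly from Matn4 and Chad. The part of cartilage in these counts was not tested.

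Col4a3bp, the lipid transfer protein gene that the rule also took, was at 111 ± 15.5 CPM in Control and 96.0 ± 22.4 CPM in TTI-101-treated lungs (SD, n = 4 each), with a log2 fold change of -0.21 (SE 0.19, edgeR adjusted p = 0.739).

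The genes that make, process and bind collagen were read from short lists beside the chains, with 0 genes at an adjusted p under 0.05 in any list. Of 18 genes that fold and modify chains in the endoplasmic reticulum, 0 passed an unadjusted p of 0.05 from edgeR, and their median log2 fold change was 0.11. P4hb, the beta subunit of prolyl 4-hydroxylase and the most abundant of them, was at 777 ± 242 and 587 ± 37.9 CPM (SD, n = 4 each), with a log2 fold change of -0.40 (SE 0.21, edgeR adjusted p = 0.657) and of -0.15 without Control mouse 4, which was at 1137 CPM. Its treated lungs lay below all Control lungs by a narrow margin, with 621 CPM in the highest treated and 624 CPM in the lowest Control lung. Of all genes tested, 2.96% did not overlap between the groups. Adamts14, Notch3 and Vwf, named below, did not overlap either, with the treated lungs higher. P3h3 and Colgalt2, a prolyl hydroxylase and a collagen galactosyltransferase, had log2 fold changes of 0.42 and 0.85 (edgeR adjusted p = 0.657 each). Without Control mouse 4 these were 0.28 and 0.54.

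Of 14 tested genes of procollagen processing and crosslinking, 4 passed an unadjusted p of 0.05 from edgeR with higher means in treated lungs, as 3.02% of all genes did, 0 passed with lower ones, and the median was 0.43, or 0.27 without Control mouse 4. Tgm2, a transglutaminase that crosslinks matrix proteins, was at 303, 223, 209 and 141 CPM in Control and at 392, 245, 472 and 341 CPM in TTI-101-treated mice, a log2 fold change of 0.73 (SE 0.26, edgeR p = 0.0172 before and 0.657 after adjustment, exact permutation p = 0.0571). Of its treated lungs, 3 lay above every Control lung. Loxl1, a lysyl oxidase of elastic fibers, had a log2 fold change of 0.66 (edgeR unadjusted p = 0.0408) and Adamts14, a procollagen N-proteinase, one of 0.72 (edgeR unadjusted p = 0.0322), and the last of the 4 was Pxdn, which crosslinks type IV collagen, with 0.65 (edgeR unadjusted p = 0.0473). Lox itself had a log2 fold change of 0.07, and Pxdn and Lox are named here although they were chosen after their values were seen. Without Control mouse 4, the unadjusted edgeR p was 0.032 for Tgm2, 0.056 for Adamts14, 0.085 for Loxl1 and 0.087 for Pxdn.

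Of 17 fibril-associated matrix genes, 1 passed an unadjusted p of 0.05 with a higher and 1 with a lower mean in treated lungs, and the median log2 fold change was 0.31. These were Tnxb, a tenascin that binds fibrils, at 92.6 ± 24.1 and 147 ± 38.0 CPM (SD, n = 4 each, log2 fold change 0.67, edgeR adjusted p = 0.657), and Vcan, a large proteoglycan, at 15.6 ± 1.84 and 10.4 ± 3.25 CPM (SD, n = 4 each, log2 fold change -0.58, edgeR adjusted p = 0.657). Sparc, a chaperone of collagen in the matrix and the most abundant of this list, had a log2 fold change of 0.31, and Prelp, a leucine-rich proteoglycan of basement membranes, one of 0.76 (edgeR adjusted p = 0.699 and 0.657). Without Control mouse 4, Sparc had 0.15 and Prelp 0.52. Of 15 basement membrane partners 1 passed, Hspg2, which encodes perlecan, at 236, 189, 166 and 129 CPM in Control and at 231, 224, 344 and 361 CPM in treated mice. Its log2 fold change was 0.69 (SE 0.23, edgeR p = 0.0128 before and 0.657 after adjustment, exact permutation p = 0.0857), and 0.57 without Control mouse 4. The laminin chains Lamb2 and Lama3 had log2 fold changes of 0.38 and 0.62 (edgeR adjusted p = 0.657 each), and the median of the list was 0.29.

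Of 10 collagen receptors and uptake genes, 2 passed an unadjusted p of 0.05, the uptake receptor Mrc2 with a log2 fold change of 0.58 and the platelet receptor Gp6, at 0.533 ± 0.325 and 1.41 ± 0.713 CPM (SD, n = 4 each), with one of 1.38 (edgeR adjusted p = 0.657 each). Gp6 passed the filter on low counts mainly through treated lungs, so its call is conditioned on the group where it is high and is not read as a result. Without Control mouse 4, Mrc2 and Gp6 had unadjusted edgeR p of 0.057 and 0.072. Itgb1, the shared beta chain of the collagen-binding integrins, had a log2 fold change of 0.07 and Itga1, one of its partners, 0.53. Without Control mouse 4 these were 0.03 and 0.33. Of 16 TGF-beta ligands, receptors and targets, 0 passed, with a median of 0.12. In that list, the feedback inhibitor Smad7 had a log2 fold change of 0.66 (edgeR unadjusted p = 0.0528), Tgfbr2 and Tgfbr3 had 0.28 and 0.38, and Ctgf, a target gene, had 0.16. Over the 6 lists, 9 of 90 tested genes (10.0%) passed an unadjusted p of 0.05, all with higher means in treated lungs except Vcan, where 6.61% of all genes passed in either direction. The 9 include Gp6, and their share is not read as a result about the lists. Tnxb, Vcan and Hspg2 had unadjusted edgeR p of 0.035, 0.039 and 0.028 without Control mouse 4. Genes of a list share tissue and libraries.

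Markers of cell types that make or border collagen differed between the lungs as well. The 12 fibroblast markers added up to 998 to 3192 CPM in Control and 2732 to 4691 CPM in TTI-101-treated lungs, all 12 with log2 fold changes above 0 and a median of 0.45, or 0.29 without Control mouse 4. Of these 12 markers, 0 passed an unadjusted p of 0.05 from edgeR. Inmt, the most abundant of them, was at 1183, 1344, 1042 and 336 CPM in Control and at 1667, 1171, 1899 and 1471 CPM in treated mice. The 10 endothelial markers added up to 1228 to 3293 and 2749 to 4627 CPM, with a median of 0.54, or 0.31 without Control mouse 4. Of them, 2 (Emcn and Vwf) passed an unadjusted p of 0.05 from edgeR with higher means, as 3.02% of all genes did. Without Control mouse 4, their unadjusted edgeR p was 0.057 and 0.052. The 10 smooth muscle and pericyte markers added up to 597 to 1679 and 1044 to 1783 CPM, with a median of 0.25 that was 0.02 without Control mouse 4. Of these, 8 had log2 fold changes above 0, Acta2, the most abundant, with 0.03, and 2 below 0, Cnn1 with -0.08 and Actg2 with -0.16. Without Control mouse 4, Acta2, Tagln, Cnn1 and Actg2 had -0.19, -0.06, -0.32 and -0.44, and the others were above 0. The pericyte gene Notch3 passed with a log2 fold change of 0.62 (edgeR unadjusted p = 0.0096, adjusted p = 0.657), and with an unadjusted edgeR p of 0.022 without Control mouse 4. The 6 mesothelial markers added up to 21.6 to 226 and 157 to 291 CPM, with a median of 0.64, or 0.30 without Control mouse 4. Of these 6 markers, 0 passed an unadjusted p of 0.05 from edgeR.

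Of the 12 alveolar and airway epithelial markers, those of type 2 alveolar cells, of airway cells and of epithelium in general had log2 fold changes below 0, and the 3 markers of type 1 alveolar cells had ones above 0, Ager with 0.41, Hopx with 0.39 and Pdpn with 0.14 (-0.02 without Control mouse 4). The 12 added up to 58163 to 101817 CPM in Control and 41242 to 77274 CPM in TTI-101-treated lungs, with 9 log2 fold changes below 0, a median of -0.49 (-0.24 without Control mouse 4) and 3 genes, Epcam, Cdh1 and Scgb1a1, at an unadjusted p under 0.05 from edgeR with lower means, as 3.58% of all genes were. Control mouse 4 had the lowest sums of the fibroblast, endothelial, smooth muscle and mesothelial markers and the highest sum of the epithelial ones. No marker of these 5 lists was at 0 in all libraries. The part of cell type shares in the collagen values was not tested.

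**Figure D5:**
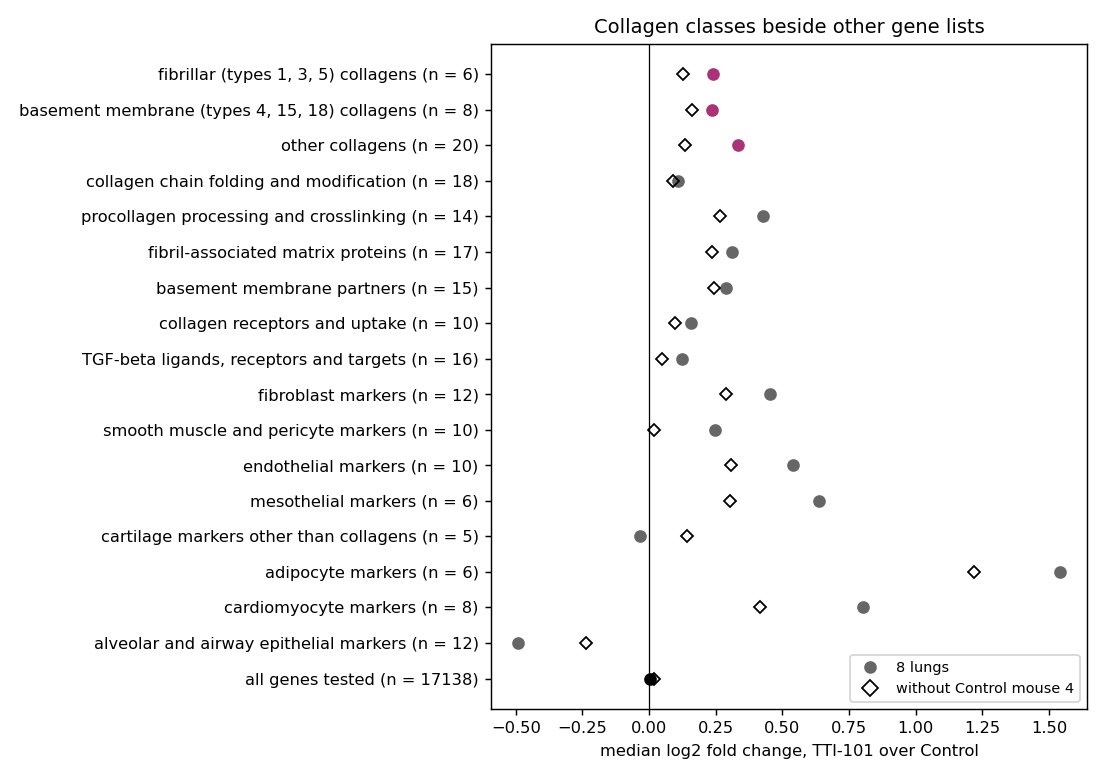
Median log2 fold changes, TTI-101 over Control, are shown for the 3 collagen classes (purple points), for 14 lists of related and marker genes (gray points) and for all genes tested (black point), with open diamonds for the medians without Control mouse 4. The collagen medians of 0.24 to 0.33 lie between those of the folding genes (0.11) and the fibroblast markers (0.45), and without Control mouse 4 they are 0.13 to 0.16.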

How the data were processed

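RNA of 8 whole lungs was sequenced by the provider of the study from poly(A)-selected, stranded libraries with paired ends. The authors deposited whole-number counts per gene without normalization. The submitters' processing notes name STAR, DESeq2 and mm10, and versions, annotation and the strand setting of the counting are not given in the sources used here. All 45 members had the same coordinates in GENCODE M21 on GRCm38.

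Counts were analyzed in R 4.3.3. In edgeR 4.0.16, 17138 genes passed filterByExpr at its minimum count of 10. TMM factors scaled the libraries, and groups were compared by robust quasi-likelihood tests with Benjamini-Hochberg adjustment over all of them, without covariates. FPKM is TMM-scaled CPM per kilobase of the deposited gene length. Single values were compared by two-sided exact permutation tests over 70 assignments, whose smallest p is 0.0286, and correlations over 40320 pairings. Alternatives were DESeq2 1.42.0, limma-voom (limma 3.58.1), other scalings and filters, Xist as a covariate, a replicate block and each library left out. The tests were also run on simulated counts with a capped spread between libraries and no outlying library. That check does not cover a lung that stands apart as Control mouse 4 does.

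The members and gene lists were chosen with earlier results of these data known. Named were all tested chains of types I, III, V, IV, XV and XVIII, the 12 most abundant others by FPKM, any at an unadjusted p under 0.05, and up to 3 genes with the lowest p and the most abundant gene of each list. Col17a1, Col2a1, Col9a2, Sftpc, Pxdn, Lox and the low cartilage and type 1 cell markers were added after their values were seen. The deposited table held 0 columns of other samples.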

Additional observations from a re-analysis of the deposited data

Results flagged for a closer look

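In groups of 4 lungs, the distance of the highest or lowest lung from its nearest neighbor was divided by the range of the group and compared with Dixon's critical value for groups of that size. Of 74 groups examined, 3 exceeded it, where chance gives about 3.7. Col5a3 was at 30.2 CPM in TTI-101-treated mouse 2, against 11.2 to 13.7 CPM in the other treated mice (gap 0.865 of the range). Col6a2 was at 364 CPM in TTI-101-treated mouse 3, against 231 to 248 CPM in the others (gap 0.874). The ratio of Col4a3 to Col4a4 in FPKM was 1.13 in Control mouse 1, against 0.691 to 0.751 in the other Control mice (gap 0.863).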

How the results depend on the processing

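The medians of the 3 collagen classes kept their sign under all alternatives, from 0.12 (fibrillar, without TTI-101-treated mouse 3) to 0.45, and 25 to 27 of 34 tested chains had log2 fold changes above 0 in each (24 of 29 with at least 10 counts in every library). At an adjusted p under 0.05, edgeR called 0 genes in all, and DESeq2 called 4, Xist as a covariate 1 and leaving out single libraries 0 to 1. At an unadjusted p under 0.05, the 1132 genes became 1849 without a filter and 422 to 2498 with single libraries left out, the fewest without TTI-101-treated mouse 3 and the most without mouse 2 of that group, and 531 without Control mouse 4. The 2 collagen chains became 6 with DESeq2, 5 without a filter and 0 to 7 with single libraries left out (0 without treated mouse 3 or 4, 7 without treated mouse 2, 5 without Control mouse 1). The members changed too, as limma-voom passed Col13a1 and Col17a1 but not Col12a1, and without a filter Col12a1 passed but not Col13a1. The 9 pathway genes became 3 to 23. The cause was not tested. Log2 fold changes of the 26 named chains turned sign only with single libraries left out, ranging from -0.21 to 0.13 for Col18a1, -0.072 to 0.14 for Col4a6, -0.20 to 0.40 for Col5a3, -0.037 to 0.13 for Col23a1, -0.22 to 0.077 for Col14a1 and -0.088 to 0.13 for Col27a1, and those of Col8a1, Col28a1 and Col6a5 did so too. Of 442 values of single named chains, 428 kept their sign and 14 turned it. The side of an adjusted p of 0.05 did not change in any of them, whereas calls at an unadjusted p did, as given above.

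Same-numbered libraries correlated at 0.39, 0.08, 0.16 and 0.07 in their deviations from the group means, so the numbers were not taken to pair the mice, and only for number 1 did both libraries correlate best with each other. In both groups, number 1 had the most counts (26873509 in Control, 25920509 in treated) and number 3 the next (18220467 and 17982612). Numbers 2 (16446481 and 16642630) and 4 (16948084 and 16075855) had fewer. Whether the numbers reflect a shared processing order was not tested. With the replicate block, 1298 genes, 1 collagen chain (Col13a1) and 5 pathway genes passed an unadjusted p of 0.05. Depth limits the 10 untested chains, with at most 43 counts per library.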

Other observations

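Other tissues were measured in the same lungs beside the collagens. The adipocyte markers had the largest median of the 14 lists, a log2 fold change of 1.54 over 6 tested genes (1.22 without Control mouse 4). Of these, 4 passed an unadjusted p of 0.05 from edgeR with higher means, as 3.02% of all genes did, and 0 an adjusted one, with Cfd (adipsin) at 30.7, 61.6, 11.6 and 4.73 CPM in Control mice 1 to 4 and at 74.9, 163, 110 and 18 CPM in TTI-101-treated mice 1 to 4, and Adipoq (adiponectin) at 3.60, 3.83, 0.333 and 0.128 CPM and at 10.1, 11.7, 11 and 1.52 CPM. Their summed level was 13.6 to 117 CPM in Control and 46.2 to 289 CPM in treated lungs. The 8 cardiomyocyte markers added up to 87.9 to 938 CPM in Control and to 654 to 1702 CPM in treated lungs, with a median log2 fold change of 0.80 (0.41 without Control mouse 4) and 0 genes with an edgeR p under 0.05 before adjustment. TTI-101-treated mouse 2 was highest in both lists, and Control mouse 4 lowest.

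Among the cartilage markers, Comp, a matrix protein that binds fibrillar collagens, was at 0.183, 0.179, 0.388 and 0.0640 CPM in Control and at 0.678, 1.02, 0.723 and 0.608 CPM in treated mice. It passed the filter on low counts only through the treated group, so no test of it is given, and a few reads decide its value.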
